A study of Mus musculus with 6 samples.

Results

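Immediate early genes encode transcripts that cells make within minutes of a stimulus, without first having to make new protein. The 10 genes described here all encode nuclear regulators of this kind: Fos and Fosb, Jun and Junb, Egr1 and Egr2, Atf3, Nr4a1, Klf2 and Ier2. They were chosen by name, with earlier results of these data known, and were found in the deposited table by their Ensembl identifiers, as 10 of its 52636 genes. In the thoracic aorta of KO mice, whose smooth muscle cells (SMCs) were targeted for deletion of both TGF-β receptors, 3 of the 10 transcripts were lower than in WT mice: Fosb, which encodes a partner of the Jun proteins, by 3.07-fold, Nr4a1, which encodes an orphan nuclear receptor, by 2.93-fold, and Atf3, which encodes a stress-induced repressor, by 1.85-fold. None was higher. The other 7 did not pass the test, and among them Fos, Egr1, Ier2 and Junb differed by 2.87-fold or more between the highest and the lowest WT library.

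RNA was sequenced from 6 thoracic aortas of mice 12 weeks of age. The 4 WT libraries came from C57BL/6J mice that received no treatment. The 2 KO libraries came from mice carrying Tgfbr1f/f, Tgfbr2f/f, Myh11-CreERT2 and the mT/mG reporter, injected intraperitoneally with tamoxifen (2 mg daily over 5 days, begun at 11 weeks). The WT mice therefore lacked the floxed alleles, the Cre transgene, the reporter and the tamoxifen, and the effects of these cannot be told apart from those of receptor loss. Cre was driven by the Myh11 promoter, which is active in SMCs, the Cre transgene sits on the Y chromosome so that only males were used, and the aortas also held endothelial cells, fibroblasts and other cells in which the receptors were not targeted. In such bulk RNA, fewer cells of a type and less RNA per cell cannot be told apart. The labels give no hour of dissection, date or batch. The study counts 4 WT and 2 KO mice for these 6 libraries.

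Total counts ran from 19650983 to 28860598 per library, and the 10 genes had between 35 and 7663 counts each in a library. The columns of the table carry codes, and the match of a code to WT or KO was inferred. WT-1 to WT-4, KO-1 and KO-2 below are names for columns, numbered as their codes are, and a column was not tied to a single sample of its group. Reads over the whole of Tgfbr1 and Tgfbr2 did not check these labels, since counts over a whole gene do not show the deleted part: normalised counts (counts divided by the library's size factor) of Tgfbr1 were 3858, 3999, 4763 and 5420 in WT and 5780 and 4568 in KO, and those of Tgfbr2 were 5327, 5643, 6948 and 7042 in WT and 5784 and 5937 in KO. Smooth muscle markers (Myh11, Acta2 and 6 others) summed to between 883200 and 1043000 normalised counts in WT, 838700 in KO-1 and 998200 in KO-2, and DESeq2 and edgeR called 0 of the 8 (at an unadjusted p under 0.05 in DESeq2, 1 was higher and 3 lower). KO-2 stood apart by 11.71% mitochondrial counts against 2.617% to 4.441% in the other 5 libraries.

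The proteins work in small families. Fos and Jun proteins pair through leucine zippers to form AP-1, which binds the site TGANTCA. Atf3 has the same type of zipper and binds AP-1 sites and cyclic AMP response elements (CRE, TGACGTCA). Egr1 and Egr2 are zinc finger proteins that bind GC-rich sites of the form GCGNGGGCG, Nr4a1 is a nuclear receptor without a known physiological ligand, Klf2 is a zinc finger factor best known from endothelial cells under laminar flow, and Ier2 is a small nuclear protein. In arteries these genes respond to stretch, growth factors, vasoconstrictors and injury, and also to the dissection of a tissue. For many immediate early genes, though not for all in the same way, induction runs through serum response factor with its partners at CArG boxes or through CREB at CRE sites.

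The stretches just upstream of the start sites are shown because this is where such factors bind. RefSeq promoter windows on GRCm38.p6, each from 250 bases before to 50 after a start, were held for 8 of the 10 genes. Ier2 and Egr1 had none. Only bases before the start are printed, 5′ to 3′ on the strand of the gene, with matches to the searched motifs in capitals. The first 3 belong to the genes that were lower in KO, in the regions chr15:101266596-101266845 (plus strand) for Nr4a1, chr7:19310046-19310185 (minus strand) for Fosb and chr1:191183334-191183433 (minus strand) for Atf3. The RefSeq starts of Nr4a1 and Atf3 used here lie inside the longer GENCODE gene models.
Nr4a1: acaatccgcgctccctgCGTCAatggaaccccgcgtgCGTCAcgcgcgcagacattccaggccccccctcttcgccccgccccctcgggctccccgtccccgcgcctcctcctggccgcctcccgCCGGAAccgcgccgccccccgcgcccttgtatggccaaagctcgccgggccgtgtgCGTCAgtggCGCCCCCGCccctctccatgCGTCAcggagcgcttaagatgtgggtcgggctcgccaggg
Fosb: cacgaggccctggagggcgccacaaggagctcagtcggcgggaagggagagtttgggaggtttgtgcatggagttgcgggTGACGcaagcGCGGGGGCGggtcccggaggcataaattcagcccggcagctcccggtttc
Atf3: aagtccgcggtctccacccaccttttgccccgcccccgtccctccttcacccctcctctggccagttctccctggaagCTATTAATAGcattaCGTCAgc
Nr4a1 had 4 copies of the CRE half-site TGACG (read as CGTCA on the other strand), an EGR site and an ETS site. Fosb had a TGACG beginning 60 bases before its start and an EGR site at 50 bases, and Atf3 had a MEF2 box next to a TGACG. For comparison, upstream stretches of Fos (chr12:85473750-85473889, plus strand), Jun (chr4:95052223-95052322, minus strand) and Egr2 (chr10:67537729-67537868, plus strand, 1 of 5 start windows of that gene) come from genes that did not pass the test. The printed lengths differ, at 250 bases for Nr4a1, 140 for Fosb, Fos and Egr2, and 100 for Atf3 and Jun. Motifs in the printed stretches therefore cannot be counted against each other.
Fos: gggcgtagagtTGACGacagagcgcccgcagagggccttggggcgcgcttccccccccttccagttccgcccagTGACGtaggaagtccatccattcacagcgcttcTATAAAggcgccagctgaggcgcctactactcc
Jun: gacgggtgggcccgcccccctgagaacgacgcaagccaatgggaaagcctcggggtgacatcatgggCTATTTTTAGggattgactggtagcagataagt
Egr2: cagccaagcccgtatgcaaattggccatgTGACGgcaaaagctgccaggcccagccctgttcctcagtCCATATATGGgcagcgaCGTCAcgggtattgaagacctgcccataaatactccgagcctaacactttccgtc
Fos had a TATA box 33 bases before its start and TGACG at 129 and 66 bases, Jun had a MEF2 box, and Egr2 had a CArG box flanked by copies of TGACG. In the counts that follow, a gene scored if any of its start windows held a motif, while the percentages are of single windows. Egr2, with 5 windows, thus had more chances to score. Over the whole windows, searched on both strands, 7 of the 8 genes held TGACG, including 3 of 3 that were lower in KO and 4 of 5 that did not pass, against 20.8% of 32851 windows of all genes. That motif was chosen after the sequences had been seen, and it forms part of the full CRE TGACGTCA, which 0 of the 8 held (1.79% of all windows). The EGR site GCGNGGGCG was found in 3 of the 8 (Fosb, Klf2 and Nr4a1) and in 5.55% of all windows, the MEF2 box in 3 (Atf3, Jun and Klf2) and 0.557%, the ETS site CCGGAA in 2 (Egr2 and Nr4a1) and 14.9%, TATAAA in 2 (Fos and Junb, in Junb after the start) and 13.6%, and the CArG box in 1 (Egr2) and 1.63%. No window of the 8 genes held the AP-1 site TGANTCA (7.81% of all) or the Smad palindrome GTCTAGAC (0.213% of all). A match of letters shows only that they are present in the window. Bases farther than 250 before a start were not searched, and Egr1 and Ier2 had no window. A motif not found here, such as a CArG box in Fos, may therefore lie outside the window.

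Of the 10 genes, all could be tested, and DESeq2 called 3 lower and 0 higher in KO at an adjusted p under 0.05. Over all 17070 genes tested the same rule called 10.4%, of which 4.69% were lower and 5.71% higher. At an unadjusted p under 0.05, 5 of the 10 were lower (10.3% of all genes tested) and 0 higher, and edgeR also called 0 higher. Both KO libraries lay below all 4 WT libraries for the same 3 genes, against 16.4% of all genes tested, and above all WT libraries for 0 of them, against 17.9%. Requiring also a change above 2-fold left Fosb and Nr4a1 (2.1% of all genes tested were lower by that rule). The median log2 fold change of the 10 genes was -0.67, against 0.01 over all genes tested, and it was -0.39 without WT-1.

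**Figure D1:**
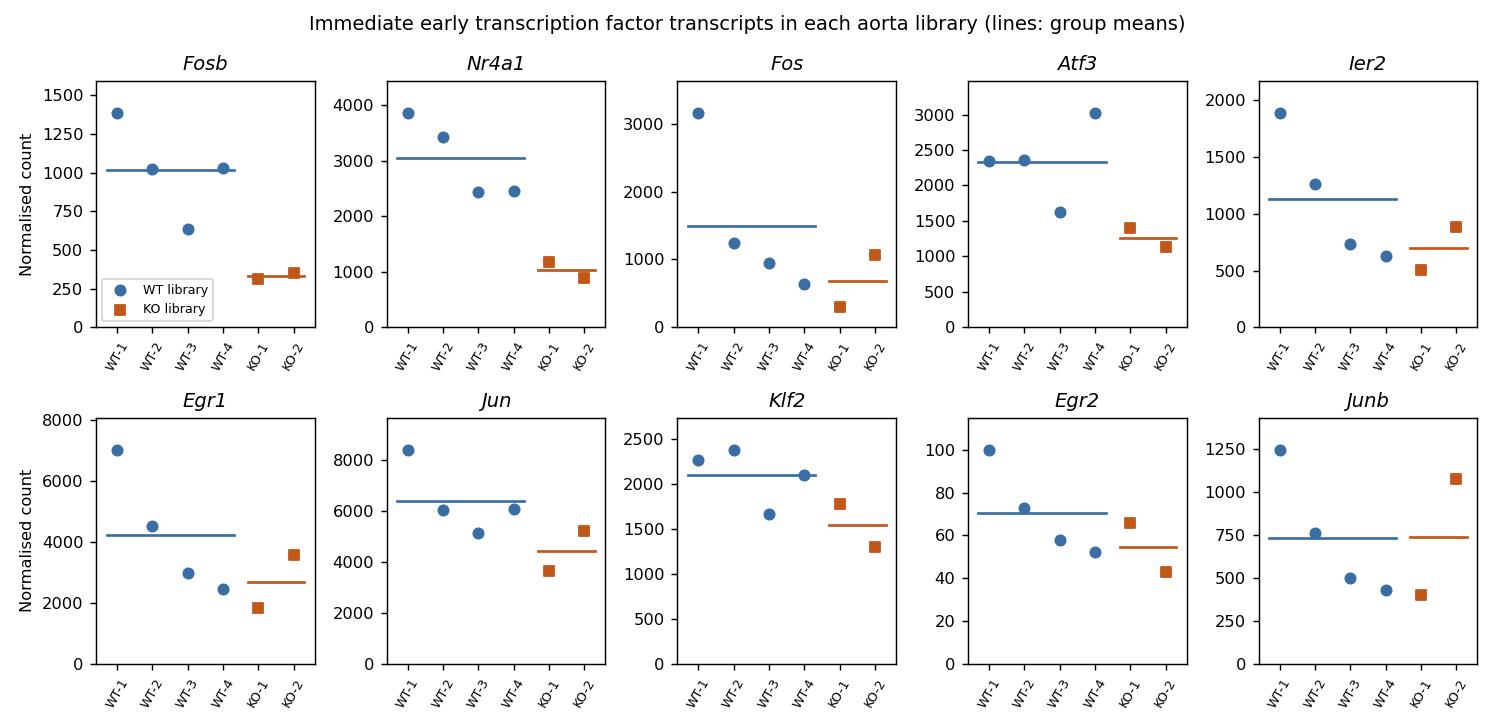
Normalised counts (vertical axis, linear from 0, a scale for each gene) of the 10 genes in the 4 WT libraries (circles) and the 2 KO libraries (squares), with horizontal lines at the group means. For Fosb, Nr4a1 and Atf3 both KO libraries sit below every WT library, while for Fos, Egr1, Ier2 and Junb WT-1 stands highest and KO-2 lies among the WT libraries.

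Fosb, one of the AP-1 transcripts of the Fos family, had 1384, 1025, 637.1 and 1031 normalised counts in WT-1, WT-2, WT-3 and WT-4, against 311.9 in KO-1 and 351.5 in KO-2. The groups did not overlap, and even WT-3, the lowest WT library, was above both KO libraries. The log2 fold change was -1.62 (SE 0.28, 95% Wald interval from -2.18 to -1.06, DESeq2 adjusted p = 9.48e-07). Fos, the gene that gave the family its name, had 3157, 1236, 953.7 and 635.9 in WT and 305 and 1069 in KO. KO-1 was below all WT libraries, but KO-2 was above both WT-3 and WT-4. Its log2 fold change of -1.12 carried an SE of 0.88 and an interval from -2.85 to 0.61, which includes both no change and a decrease beyond 2-fold (DESeq2 adjusted p = 0.5). Mean Fos was 1496 ± 1134 (SD, n = 4) over WT libraries against 687.2 ± 540.5 (SD, n = 2) over KO libraries, and mean Fosb was 1019 ± 305.1 (SD, n = 4) against 331.7 ± 28.1 (SD, n = 2).

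Jun and Junb encode the partners that make Fos proteins able to bind DNA. Jun had 8417, 6040, 5149 and 6094 normalised counts in WT and 3660 and 5229 in KO. Only WT-3 was as low as the higher KO library. The log2 fold change was -0.53 (SE 0.23, interval from -0.99 to -0.07), with an unadjusted p of 0.023 and a DESeq2 adjusted p of 0.138. Junb, whose protein can also restrain Jun, had 1247, 763.3, 501.3 and 432.3 in WT and 404.4 and 1078 in KO. KO-1 lay just below the WT range and KO-2 near its top, and the means of 735.9 ± 369.2 (SD, n = 4) and 741.2 ± 476.3 (SD, n = 2) were nearly equal. Its log2 fold change of 0.01 had an interval from -1.27 to 1.29, wide enough to include a 2-fold change either way (DESeq2 adjusted p = 0.995). Junb overlaps Prdx2, and Jun overlaps Junos, on the opposite strand, and whether the counting used strand is not stated.

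Atf3 forms dimers with Jun proteins and is induced by many stresses. Its normalised counts were 2339, 2365, 1623 and 3019 in WT and 1395 and 1133 in KO. WT-3 was the library closest to KO, and the groups did not overlap. The log2 fold change was -0.89 (SE 0.24, interval from -1.37 to -0.40, DESeq2 adjusted p = 0.00569). This call was lost by edgeR's quasi-likelihood test (log2 fold change -0.90, adjusted p = 0.0714), which called 2 of the 10 lower and 2.76% of all its genes, and without KO-2 (log2 fold change -0.73, DESeq2 adjusted p = 0.161). Atf3 also overlaps Gm24748 on the opposite strand.

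The early growth response genes did not pass the test. Egr1, a factor that rises in vessels after injury, had 7013, 4522, 2978 and 2441 normalised counts in WT and 1825 and 3576 in KO. As with Fos, KO-1 was below all WT libraries and KO-2 was within their range. Its log2 fold change was -0.65 (SE 0.60, interval from -1.82 to 0.52, DESeq2 adjusted p = 0.581). Egr2, known for its part in myelination and in T cells, was the least abundant of the 10, with 99.96, 72.74, 57.92 and 52.21 in WT and 66.01 and 43.02 in KO. Here KO-2 and not KO-1 was the lower library, and the log2 fold change was -0.36 (SE 0.44, interval from -1.23 to 0.51, DESeq2 adjusted p = 0.706).

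Nr4a1, which encodes the nuclear receptor also called Nur77, had 3858, 3435, 2444 and 2450 normalised counts in WT and 1185 and 892.4 in KO. WT-3, the lowest WT library, was above both KO libraries, so the groups did not overlap. The log2 fold change was -1.55 (SE 0.24, interval from -2.02 to -1.08, DESeq2 adjusted p = 2.02e-08). With means of 3046 ± 713.8 (SD, n = 4) and 1039 ± 207.1 (SD, n = 2), it had the smallest adjusted p of the 10 genes. Fosb and Nr4a1 passed the test in 14 of 14 alternative analyses, with largest adjusted p of 0.0236 and 0.0154, both from edgeR.

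Klf2 encodes a factor that is induced in endothelial cells by blood flow. Its normalised counts were 2268, 2379, 1666 and 2102 in WT and 1782 and 1298 in KO. KO-1 lay above WT-3, so the groups overlapped, and the log2 fold change was -0.45 (SE 0.21, interval from -0.87 to -0.03, unadjusted p = 0.037, DESeq2 adjusted p = 0.187). Without KO-1 it passed (log2 fold change -0.69, DESeq2 adjusted p = 0.0314). Ier2, which has no DNA-binding domain of the families above, had 1886, 1258, 731 and 630.7 in WT and 507.6 and 882.5 in KO. Its 2 KO libraries lay below and within the WT range, with a log2 fold change of -0.70 (SE 0.38, interval from -1.45 to 0.06, DESeq2 adjusted p = 0.275).

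**Figure D2:**
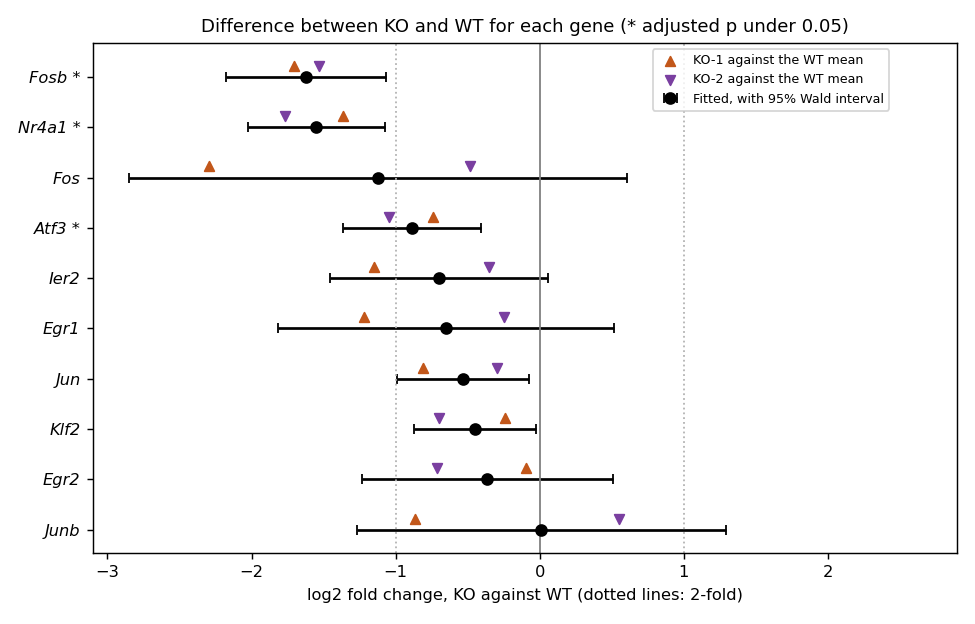
Log2 fold change of KO against WT (horizontal axis) for each of the 10 genes, as fitted by DESeq2 (circles, bars for the 95% Wald interval), with KO-1 (upward triangles) and KO-2 (downward triangles) each set against the WT mean. Dotted lines mark 2-fold and asterisks an adjusted p under 0.05. The intervals of Fosb and Nr4a1 lie wholly beyond a 2-fold decrease, and those of Fos, Egr1, Egr2 and Junb span 0 widely.

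The KO libraries differed from each other in which genes were low. Relative to the WT mean, Fos stood at -2.29 in KO-1 and -0.48 in KO-2 on the log2 scale, Egr1 at -1.22 and -0.24, Ier2 at -1.15 and -0.35, and Junb at -0.86 and 0.55. By contrast, Fosb stood at -1.71 and -1.53, Nr4a1 at -1.36 and -1.77 and Atf3 at -0.74 and -1.04. In all, 9 of the 10 were below the WT mean in both KO libraries (34.5% of all genes tested), with Junb the exception, and KO-2 was above KO-1 for 6 of the 10 (48% of all genes tested). Of the 7 genes not called, 5 had intervals that include a 2-fold decrease (Fos, Junb, Egr1, Egr2 and Ier2), which thus do not exclude a change of that size.

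The WT mice varied among themselves in these transcripts. The coefficient of variation over the 4 WT libraries had a median of 30.1% for the 10 genes, against 16.1% for all genes tested, and 9 of the 10 exceeded the latter. Fos was the most variable at 75.8%, above 95.1% of genes tested, with 4.96 times as many normalised counts in WT-1 as in WT-4. Ier2 at 51.2%, Junb at 50.2% and Egr1 at 48.4% followed, above 88.3%, 87.9% and 87.1% of genes tested. The 3 genes that were lower in KO varied less than these 4, with 29.9% for Fosb, 24.4% for Atf3 and 23.4% for Nr4a1. Among the others that did not pass, Egr2 stood at 30.2% and Jun at 21.7%, and Klf2 was the steadiest of the 10 at 14.9%. Spread within WT also enters the test, so it is not independent of the calls.

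This variation was shared. WT-1 was the highest WT library for 8 of the 10 genes, all but Atf3 and Klf2, against 27.5% of all genes tested. For 5 of them (Fos, Junb, Egr1, Egr2 and Ier2) the 4 WT libraries fell in 1 order, with WT-1 highest, then WT-2, WT-3 and WT-4, an order held by 7.48% of all genes tested. Among the other inducible genes listed, WT-1 was the highest WT library for 17 of the 45 tested. Single genes of that list with the order of Fos can be named, though others such as Ptgs2 and Sgk1 did not follow it. Dusp1, a MAP kinase phosphatase, had 9210, 5847, 4043 and 3753 normalised counts in WT and 2299 and 4365 in KO (DESeq2 adjusted p = 0.142), and the mRNA-decay factor Zfp36 had 3371, 2133, 1800 and 1790 in WT and 1430 and 2729 in KO (adjusted p = 0.867). These 4 were picked out after their values had been seen. The 10 most abundant genes of a library took 13.45% of counts in WT-1, 10.66% to 10.78% in the other WT libraries, 8.423% in KO-1 and 15.29% in KO-2, and whether this has a part in the shared order was not tested.

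**Figure D3:**
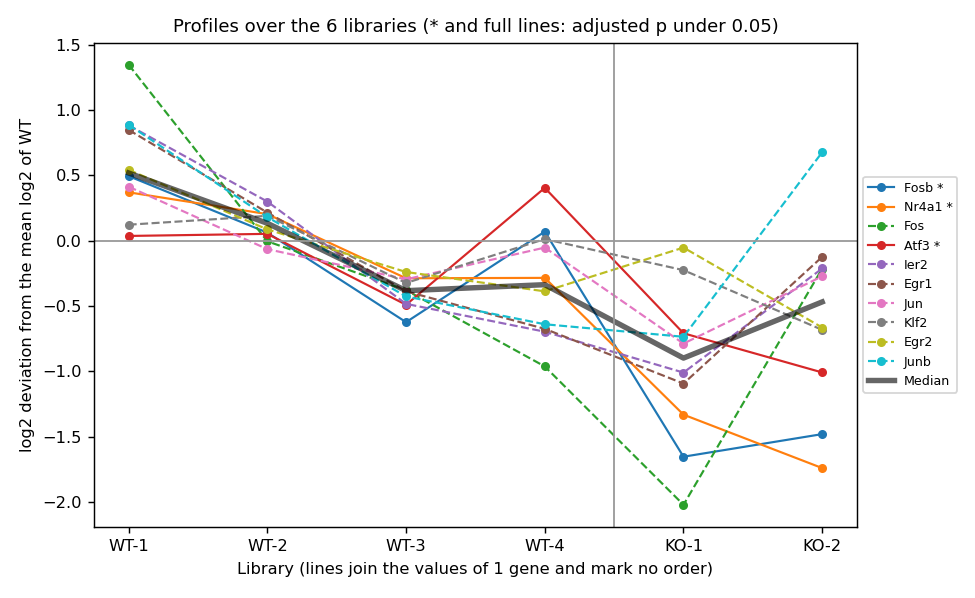
Deviation of each library from the mean log2 normalised count of WT (vertical axis, log2) for the 10 genes, with the median of the 10 as a thick line. Full lines mark the genes that passed the test, and lines join values of 1 gene and stand for no order. Most genes stand high in WT-1, and in KO-2 the genes fan out from Nr4a1 at -1.74 to Junb at 0.68.

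The median of the 10 deviations was 0.52, 0.13, -0.38 and -0.34 in the WT libraries, in that order, and -0.90 and -0.47 in the KO libraries. Jun lay closest to this median profile, with a root mean square distance of 0.178 over the 6 libraries, followed by Ier2 at 0.251 and Egr1 at 0.254, and Fos lay farthest at 0.636. Among 11426 other genes with a mean of at least 100 normalised counts, those nearest to it were Meg3 at 0.057, Amdhd2 at 0.108, Neil1 at 0.109, Endog at 0.125 and Rab24 at 0.141. Meg3 is a long noncoding RNA. Of these 5, Rab24 passed the test (log2 fold change -0.76, DESeq2 adjusted p = 0.0235), and Meg3 did not (-0.73, adjusted p = 0.078). Since likeness was taken over all 6 libraries, KO included, low values in KO were part of how these 5 were chosen.

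Levels can be compared between genes after division by exon length. In WT, Jun stood first at 2010 ± 438 (SD, n = 4) normalised counts per kilobase, then Klf2 at 1140 ± 170, Atf3 at 1080 ± 265, Egr1 at 945 ± 457, Nr4a1 at 868 ± 203, Ier2 at 740 ± 379, Fos at 636 ± 482, Junb at 320 ± 160, Fosb at 163 ± 48.9 and Egr2 at 20.8 ± 6.28. Neighbours in this order had overlapping ranges over the WT libraries, save Jun and Klf2 at the top and Fosb and Egr2 at the bottom. The places of Nr4a1, Klf2 and Egr1 depend on the length used, since with the longest transcript alone Nr4a1 came 2nd, Klf2 4th and Egr1 5th. In KO, Nr4a1 stood 7th with a mean of 296 normalised counts per kilobase.

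Within the Fos family, Fosl2 filled a varying place. The sum of Fos, Fosb, Fosl1 and Fosl2 was 1790, 1030, 815 and 909 normalised counts per kilobase in WT and 484 and 710 in KO, without overlap. Fos made up 75.2%, 51.2%, 49.7% and 29.7% of it in WT and 26.8% and 64% in KO, and Fosl2 12.1%, 31.4%, 36.5% and 51.6% in WT and 60.6% and 24.8% in KO. Fosb made up 12.4% to 18.2% in WT and 10.3% and 7.93% in KO, below the range in WT. Shares and sums in this and the other families depend on the length used. The WT mean of Fosb was 163 per kilobase of all its exons but 269 by its longest transcript. Fosl2 itself did not pass the test (log2 fold change -0.47, DESeq2 adjusted p = 0.354).

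Jund, and not Jun or Junb, supplied most of the Jun family transcripts, with 64.3% to 70.5% of their summed level per kilobase in WT, 71.8% in KO-1 and 64.5% in KO-2. Jun supplied 25.1% to 30.8% in WT and 24.5% and 27.6% in KO. The sum was 8910, 7540, 5770 and 6210 normalised counts per kilobase in WT and 4690 and 5950 in KO, where KO-2 lay above WT-3. Jund did not pass the test (log2 fold change -0.41, DESeq2 adjusted p = 0.217).

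Egr1 supplied 89.1% to 94.7% of the Egr family level per kilobase in WT and 87.9% and 94.7% in KO. Egr3 did not pass (log2 fold change -0.69, DESeq2 adjusted p = 0.152), and Egr4 had 0 counts in the 6 libraries, where a count of 0 allows up to 3.

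For the Nr4a receptors the make-up differed between the groups. Nr4a1 accounted for 92.1%, 89%, 82.3% and 83.1% of the family's level per kilobase in WT and for 56.7% and 71.2% in KO. Nr4a2 and Nr4a3 took up the rest, with Nr4a2 at 5.76% to 10.6% in WT and 21.3% and 17.6% in KO, and Nr4a3 at 2.12% to 9.63% in WT and 22% and 11.2% in KO. The sum was 1190, 1100, 846 and 840 normalised counts per kilobase in WT and 596 and 357 in KO. Neither Nr4a2 (log2 fold change 0.35, DESeq2 adjusted p = 0.561) nor Nr4a3 (0.72, adjusted p = 0.369) passed the test, and both were higher than every WT library in KO-1 only.

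**Figure D4:**
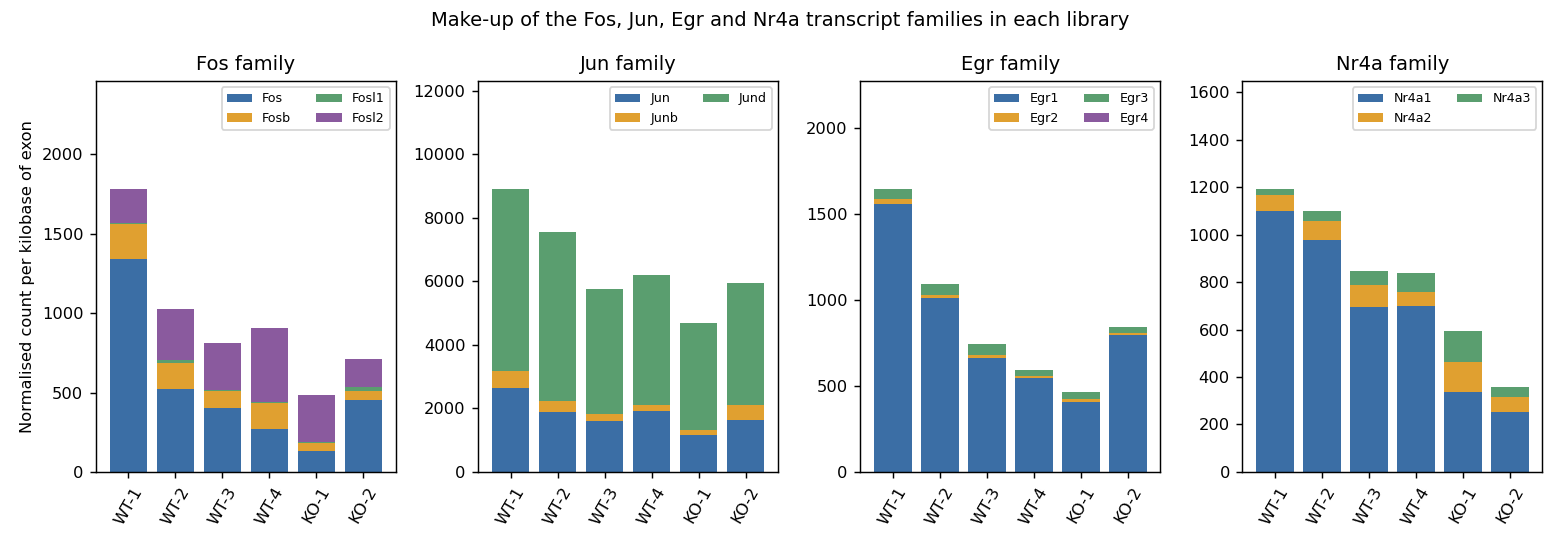
Stacked bars of normalised counts per kilobase of exon (vertical axis, linear from 0, a scale for each family) in each of the 6 libraries, for the Fos, Jun, Egr and Nr4a families. In the Nr4a family, the Nr4a1 segment falls from between 696 and 1100 in WT to 338 and 254 in KO, and Jund forms the largest segment of the Jun family in every library.

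The 6 further lists held the relatives, targets and regulators of these genes, 132 genes in all, of which 127 were tested. These lists too were chosen with earlier results of these data known. DESeq2 called 18 lower and 6 higher, together 18.9% against 10.4% of all genes tested, with a median log2 fold change of -0.03. Among 12 other AP-1 genes, 1 was lower, Mafg, which encodes a small Maf protein (1961, 2161, 1589 and 1966 normalised counts in WT, 805.8 and 1314 in KO, log2 fold change -0.86, adjusted p = 0.0045). Among 17 ATF and CREB genes, 1 was lower, Creb3l2, a membrane-bound factor of the secretory pathway (log2 fold change -0.51, DESeq2 adjusted p = 0.0365). DESeq2 and edgeR called 0 of the 3 tested genes Egr3, Nab1 and Nab2, of which 1 was higher and 1 lower at an unadjusted p under 0.05. Of the lower calls in the AP-1 and the ATF and CREB lists edgeR kept 0, with unadjusted p under 0.05 for 2 lower genes in the former and 5 in the latter.

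Of 18 tested Nr4a, Klf and Ier genes beside the 10, DESeq2 called 5 lower and 0 higher, and edgeR 1 lower and 0 higher. Over all genes tested, DESeq2 called 4.69% lower and 5.71% higher, and edgeR called 2.76% lower. At an unadjusted p under 0.05 in DESeq2, 6 of the 18 were lower and 2 higher. Klf6, a zinc finger factor induced by injury, had 10410, 11320, 12120 and 11680 normalised counts in WT and 7340 and 7359 in KO, without overlap (log2 fold change -0.63, DESeq2 adjusted p = 0.000662). Also lower were Ier3, a regulator of cell survival (log2 fold change -1.02, adjusted p = 0.00343), and Klf9, a target of glucocorticoids (-0.67, adjusted p = 0.0194). Klf7 and Klf13 were the other 2.

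Of the 45 tested inducible genes that are not among the 10, 10 were lower and 5 higher in KO. Over all genes tested, 4.69% were lower and 5.71% higher. Ptgs2, which encodes the inducible cyclooxygenase, had 505.3, 670.8, 761.9 and 929.3 normalised counts in WT and 182.9 and 206.5 in KO (log2 fold change -1.88, DESeq2 adjusted p = 4.43e-10). In WT, Ptgs2 thus ran from WT-1 lowest to WT-4 highest, the reverse of Fos. Lower too were Hbegf, a growth factor that binds the EGF receptor (log2 fold change -1.25, DESeq2 adjusted p = 8.62e-09), and Per1, which is both an inducible and a clock gene (-1.45, adjusted p = 4.6e-07). The other 7 that were lower were Gadd45b, Npas4, Ccn1, Ccn2, Btg1, Csrnp1 and Sgk1.

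Higher in KO were Myc, a driver of cell growth, with 99.96, 110.5, 51.93 and 72.05 normalised counts in WT and 166.2 and 217.6 in KO (log2 fold change 1.195, DESeq2 adjusted p = 0.0194), the kinase gene Pim1 (1.07, adjusted p = 0.0209), Tiparp (0.77, adjusted p = 0.0309), Zfp36l1 and Dusp4. Over the same 6 lists edgeR called 0 genes higher (16 at an unadjusted p under 0.05) and 10 lower, so none of these 5 passed its test. Among 32 genes of the serum response factor and MAP kinase pathways, 1 was lower, Mef2d, which encodes a MEF2 factor (4613, 4920, 5058 and 5021 in WT, 2836 and 2991 in KO, log2 fold change -0.75, adjusted p = 1.9e-05), and 1 higher, Spry1, an inhibitor of growth factor signalling (log2 fold change 0.71, adjusted p = 0.0489). Srf, which encodes serum response factor, did not pass (log2 fold change -0.19, adjusted p = 0.531).

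**Figure D5:**
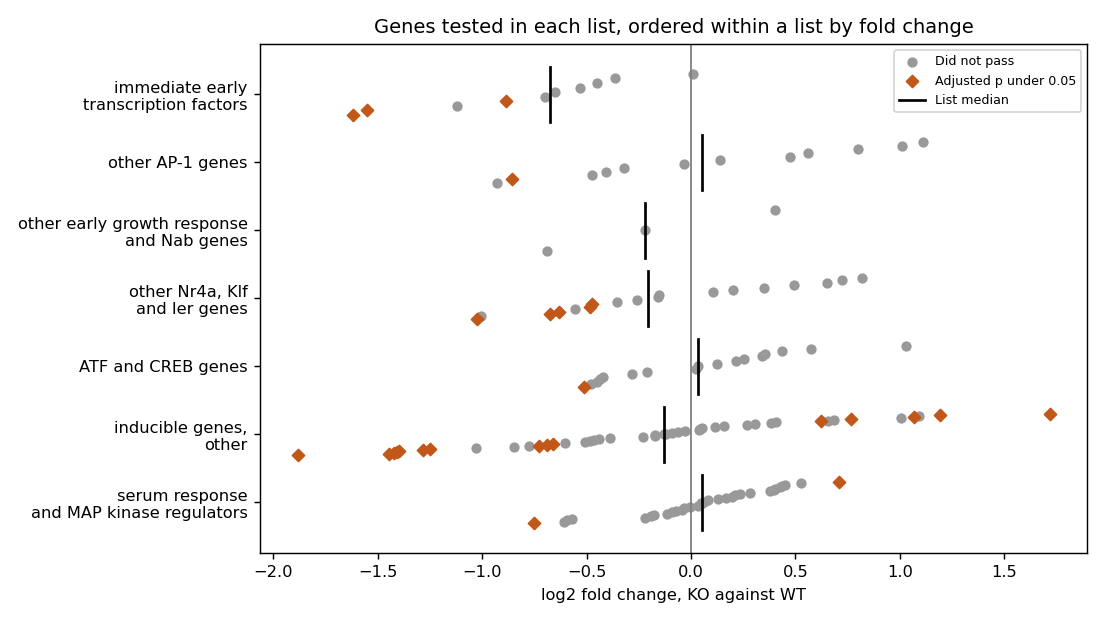
Log2 fold change of KO against WT (horizontal axis) for each tested gene of the 10 and of the 6 related lists, with diamonds for an adjusted p under 0.05, grey circles for genes that did not pass and black bars for the list medians. The 10 genes have their median at -0.67, and the related lists have theirs between -0.22 and 0.05.

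Klf2 is best known in endothelial cells, so endothelial genes were set beside it. Of 9 genes listed here as endothelial targets of Klf2, 3 were higher in KO and 0 lower. The 3 were Kdr (log2 fold change 3.18, DESeq2 adjusted p = 5.04e-15), Cyp1b1 (1.36, adjusted p = 1.59e-07) and Thbd (0.68, adjusted p = 0.0208). Whether Klf2 acts on each of the 9 in these aortas was not tested. Of all genes tested, 5.71% were higher and 4.69% lower. The list does not separate genes that Klf2 raises from those it lowers, so these counts give no direction for Klf2. Endothelial markers summed to between 14630 and 24920 normalised counts in WT and to 33730 and 33160 in KO. DESeq2 called 4 of the 10 higher and 0 lower, and edgeR 3 higher and 0 lower. At an unadjusted p under 0.05, DESeq2 had 6 higher and 2 lower, and edgeR 5 higher and 2 lower. Kdr and Tek are in both lists. The part of endothelial cells in the level of Klf2 was not tested.

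Other markers also moved with the groups. In KO, 7 of 8 macrophage markers were higher (sum 8955 to 10830 in WT, 15520 and 17790 in KO), as were 2 of 8 fibroblast markers (151400 to 166900, then 190200 and 187800), 5 of 5 mesothelial markers (206.5 to 408.4, then 848.3 and 2208) and 4 of 5 red blood cell markers (859.3 to 5990, then 11080 and 61680). The share of all genes tested that DESeq2 called higher was 5.71%. By edgeR 3 macrophage, 1 fibroblast, 3 mesothelial and 4 red blood cell markers were higher, and edgeR called 6.18% of all its genes in either direction. KO-1 had the most cardiac muscle marker counts (27160 against 2946 to 4172 in WT and 4087 in KO-2). Brown and white adipocyte markers were highest in KO-2 (11420 and 31700, against 371.7 to 574.5 and 2105 to 3743 in WT and 714 and 3543 in KO-1). Lymphocyte markers summed to 20.88 to 68.1 in WT and 88.78 and 329.4 in KO, with 0 of 7 called by DESeq2 or edgeR (2 higher at an unadjusted p under 0.05). No marker was at 0 in all libraries, and the part of these cells in the levels of the 10 genes was not tested.

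Signs of dissection stress and time of day were looked at as well. Of 10 heat shock genes 1 was higher in KO (5.71% of all genes tested were higher), Hspd1, a mitochondrial chaperone (log2 fold change 0.61, DESeq2 adjusted p = 0.0165). In edgeR 0 were higher. Neither tool called any lower, and at an unadjusted p under 0.05 the counts were 1 higher and 0 lower in both. KO-1 stood above KO-2 for all of these genes but Hspe1. Hspa1b and Dnajb1 were picked out after their values had been seen. Hspa1b had 2485, 1987, 2232 and 4650 normalised counts in WT, 4402 in KO-1 and 1095 in KO-2. Dnajb1 had 1137, 1537, 1253 and 2401 in WT, then 2007 and 619.5. Their intervals ran from -1.43 to 1.33 and from -1.46 to 0.92. The cause of this split was not tested. Of 14 clock genes 12 passed the test, 9 lower and 3 higher, against 10.4% of all genes tested in either direction. Per2 (log2 fold change -2.03, DESeq2 adjusted p = 2.82e-19), Per3 (-2.06, adjusted p = 7.77e-10) and Cry2 (-1.06, adjusted p = 8.01e-08) were among the lower. The higher ones were Npas2 (2.38, DESeq2 adjusted p = 3.83e-16), Arntl (3.81, adjusted p = 6.92e-12), which encodes Bmal1, and Clock (0.90, adjusted p = 6.74e-05). The KO libraries were unlike in some clock genes, picked out after their values had been seen. Normalised counts in KO-1 and KO-2 were 1169 and 322 for Arntl and 283 and 2870 for Dbp. Nr1d1, which did not pass, had 2654 and 11310. Per2 was closer between them, at 972.8 and 862.9. Since the hour at which each aorta was taken is not given, time of day and genotype cannot be told apart for genes that follow the clock, and whether the 3 transcripts that were lower do so here was not tested.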

How the data were processed

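RNA of 6 thoracic aortas (4 WT, 2 KO) was sequenced on an Illumina NovaSeq instrument. The authors trimmed reads with Trim Galore 0.5.0, mapped them to GRCm38 with HISAT2 2.1.0 and ran StringTie 1.3.3b with GENCODE M15. What they deposited are estimated counts of each gene, already whole and unscaled. How coverage became whole numbers, and whether strand was used, is not given in the sources used here. Positions and exon lengths came from GENCODE M21 (52489 of 52636 identifiers matched without version).

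DESeq2 1.42.0 in R 4.3.3 compared KO with WT by the Wald test with default size factors, in 1 fit over all genes, and genes with a Benjamini-Hochberg adjusted p under 0.05 were called. Folds of a single library used a pseudocount of 0.5. Intervals are 95% Wald intervals. The alternatives were edgeR 4.0.16 (quasi-likelihood test, its low-count filter on or off), a mean of at least 10, no independent filtering, 3 other scalings, leaving out each library, and a block on the column number. Motifs were searched as exact letters in RefSeq promoter windows.

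The 10 genes and all lists were chosen with earlier results of these data known. Named were the 10 genes, from each list up to 3 genes per direction with the smallest adjusted p among those called, and the 5 genes nearest to the median profile. Outside this rule stand the targeted receptors, other members of the same families, Srf, the remaining calls of a list, and genes said to be picked after their values were seen. The study counts 4 WT and 2 KO mice. That each library is 1 mouse was taken from these numbers. Mitochondrial shares have 95% Wilson intervals of at most 0.0142 percentage points to either side, which cover counting error only.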

Additional observations from a re-analysis of the deposited data

How the results depend on the processing

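Fosb and Nr4a1 passed the test in 14 of 14 alternatives and Atf3 in 11, while Fos, Junb and Egr2 passed in 0. The number of the 10 genes called lower was 3 in the analysis reported, 2 by edgeR with or without the filter, 3 or 4 when a library was left out (4 without KO-1, where Klf2 was added and 15.9% of all genes tested were called), and 5 with the replicate block, which added Egr1 (log2 fold change -1.14, DESeq2 adjusted p = 0.0441) and Ier2 (-1.20, adjusted p = 0.044). Without KO-2, Jun passed (-0.80, adjusted p = 0.0494) and Atf3 did not. None was called higher in any alternative run. The block rests on column numbers that do not pair animals: deviations correlated at -0.087 between WT-1 and KO-1 and 0.014 between WT-2 and KO-2. The median log2 fold change, -0.67, ran from -0.39 (without WT-1) to -0.99 (without KO-2) and was -1.02 with the replicate block. Junb had no stable sign: -0.014 by edgeR, -0.56 with the replicate block, and from -0.85 (without KO-2) to 0.55 when a library was left out. In the related lists, the 18 lower genes became 10 by edgeR, by edgeR without the filter and with the replicate block, and the 6 higher genes became 0, 0 and 1, with 3 without independent filtering, 10 with total counts less mitochondrial genes, and from 1 (without WT-2) to 8 (without KO-1) when a library was left out (2 without WT-4, 3 without WT-1 or KO-2). Scaling by total counts less mitochondrial genes moved the median of all genes to 0.12 and that of the 10 genes to -0.58. The median coefficient of variation in WT, 30.1%, ran from 27.1% to 37% when a WT library was left out (37% without WT-2). The cause of these shifts was not tested. The intervals of 5 of the 7 genes not called include a 2-fold decrease.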
